A study of Sus scrofa with 22 samples.

Results

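The 39 genes described here were chosen as markers of tissue that lies against the cerebellum rather than in it. Whether each of them marks only such tissue in these libraries was not tested. Of these, 12 are named for the choroid plexus and 27 for the meninges, and they were taken by gene symbol from the 31907 gene identifiers counted in 22 libraries of piglet cerebellum. A symbol led to an identifier for 36 of the 39 genes, and 30 of them (7 choroid plexus, 23 meningeal) had enough counts to be tested. KL, FOLR1 and KCNE2 were not matched by symbol and were not analysed here. AQP1, PRLR, ITIH2 and DPT had too few counts for the main tests. COL6A2 and PTGDS were listed at 0 in all 22 libraries. At these depths that allows up to 0.203 CPM in the shallowest library and up to 0.150 CPM in the deepest, for counting error only. In these limits CPM are counts per 1000000 of the library's gene total. In all levels below, the total is that of the genes passing the count filter, times a TMM scaling factor for each library (0.974 to 1.02). PTGDS, prostaglandin D2 synthase, is known as an abundant brain and meningeal transcript, and whether the identifiers matched to these 2 symbols are the loci that their reads fall on was not tested. ITIH2 was at most 0.256 CPM and DPT at most 0.538 CPM in any BDL library, against at most 0.171 and 0.298 CPM in any SHAM library.

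The animals were piglets (Sus scrofa) that had an operation at 8 days of age and were then followed for 3 weeks. In the BDL group (11 animals, 7 females and 4 males) the bile duct was tied off, which blocks the flow of bile from the liver. The SHAM group (11 animals, 5 females and 6 males) had the operation without the ligation. Each library came from the cerebellum of 1 animal by its title, was sequenced as paired 150 bp reads, and held between 14811464 and 20046909 counts assigned to genes. The labels say nothing of how the cerebellum was freed of choroid plexus and meninges at dissection. Markers of the labelled tissue were high throughout. The granule neuron gene CBLN1 lay between 1283 and 1670 CPM in BDL and between 1277 and 1677 CPM in SHAM libraries, and the Purkinje cell gene CALB1 between 300.5 and 495 CPM in BDL and between 286 and 476.5 CPM in SHAM libraries.

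The choroid plexus is a fringe of epithelium over a vascular core that hangs into the ventricles, including the fourth ventricle beneath the cerebellum, and secretes the cerebrospinal fluid. Its epithelium makes transthyretin in bulk and carries the channels, carbonic anhydrases and tight junctions of a secretory sheet. The meninges are layers of fibroblasts, collagen and vessels that cover the brain and follow the folds of the cerebellar surface. Their fibroblasts make fibrillar collagens, small leucine-rich proteoglycans and transporters for organic anions and other solutes. In bulk tissue, fewer cells of a type and less RNA per cell cannot be told apart. Each level below is thus a scaled share of a library's gene counts and not a weight of tissue.

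The transcript of TTR, transthyretin, which carries thyroid hormone and retinol-binding protein in the cerebrospinal fluid, differed more between libraries than nearly any other gene. In BDL libraries its lowest, median and highest levels were 9.49, 39.8 and 1395 CPM. In SHAM libraries they were 1.67, 72.1 and 863 CPM. The 2 groups overlapped along nearly their whole range, and very high and very low libraries occurred in both. The highest library, BDL replicate 4, held 26722 TTR counts and the lowest, SHAM replicate 1, held 25, an 837-fold span of the level. By the SD of log2 CPM over the 22 libraries TTR ranked 6 of 14994 genes tested, and the next members in that order were CLIC6 (rank 14), SLC22A8 (rank 56) and KCNJ13 (rank 107). The 5 libraries richest in TTR were BDL replicates 1 and 4 and SHAM replicates 8, 9 and 10, with 244 CPM or more each, and all other libraries had 189 CPM or less.

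CLIC6, a member of the chloride intracellular channel family found in choroid plexus epithelium, spread almost as widely. It had a lowest, median and highest level of 0.166, 0.818 and 29.7 CPM in BDL libraries, against 0.0666, 1.57 and 11.6 CPM in SHAM libraries. The libraries high in CLIC6 were those high in TTR, in both groups. KCNJ13, the inward rectifier potassium channel Kir7.1 of the apical membrane, had 2.08, 4.11 and 34.7 CPM in BDL libraries, against 2.26, 4.67 and 17.7 CPM in SHAM libraries. Most KCNJ13 values of both groups lay close together near the medians, with a tail of high libraries in each. AQP1, the water channel of the same epithelium, had 0.126, 0.512 and 7.46 CPM in BDL libraries, against 0.117, 0.307 and 3.13 CPM in SHAM libraries. The 5 libraries highest in AQP1 were the 5 highest in TTR, and CLIC6 and KCNJ13 shared 4 of those 5. PRLR, the prolactin receptor, had 0.189, 0.387 and 4.80 CPM in BDL libraries, against 0.175, 0.457 and 1.54 CPM in SHAM libraries, and shared 3 of the 5.

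**Figure D1:**
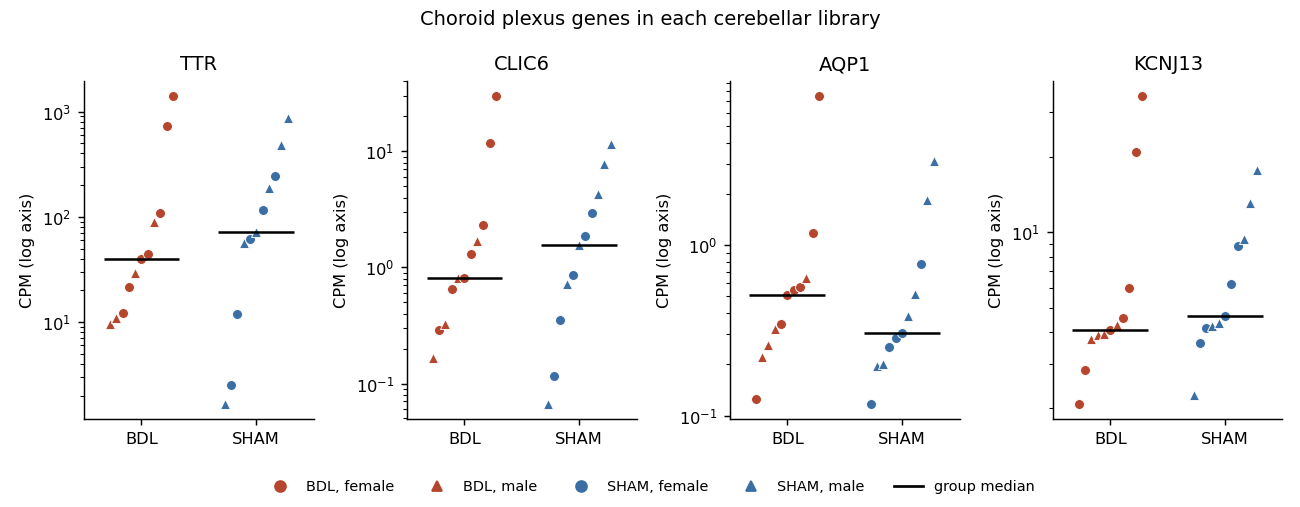
TTR, CLIC6, AQP1 and KCNJ13 in each library, in CPM on a log axis, with BDL left of SHAM. Each symbol is 1 animal (circles female, triangles male) and each bar a group median; in every panel the BDL and SHAM symbols overlap, and the highest library is BDL replicate 4.

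The other choroid plexus members did not share this spread. OTX2, a homeobox factor needed for choroid plexus development, had 76.5, 88.9 and 101 CPM (lowest, median, highest) in BDL libraries, against 69.0, 86.1 and 97.9 CPM in SHAM libraries, a 1.46-fold span over all 22. TRPM3, a calcium-permeable cation channel, had 46.8, 70.4 and 87.4 CPM in BDL libraries, against 67.4, 77.9 and 93.4 CPM in SHAM libraries. Both genes thus kept a narrow range in the libraries where TTR spanned 837-fold. OTX2 is also known from granule cells of the posterior cerebellum in mice. FOXJ1, the factor that drives motile cilia, had 2.05, 2.97 and 8.04 CPM in BDL libraries, against 2.20, 3.72 and 8.55 CPM in SHAM libraries. KRT18, an epithelial keratin, stayed between 0.438 and 1.54 CPM in BDL libraries and between 0.331 and 2.89 CPM in SHAM libraries.

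The summed level of the 9 matched choroid plexus members was 169.5, 200.2 and 1639 CPM (lowest, median, highest) in BDL libraries, against 158, 266.5 and 1078 CPM in SHAM libraries. TTR made up between 5.49% and 85.1% of that sum, which is not corrected for transcript length, in BDL libraries and between 0.854% and 80.1% of it in SHAM libraries. Without TTR the sum ran only from 153 to 244 CPM in BDL libraries and from 155.5 to 214.5 CPM in SHAM libraries. Most of that remainder was OTX2 and TRPM3, the members that kept a narrow range. They had 94.7 and 92.8 CPM of 193.5 CPM in SHAM replicate 1, and 101 and 57.0 CPM of 244 CPM in BDL replicate 4. An even remainder is thus mostly a reading of these genes. The summed level of the 27 meningeal members was far more even, at 549.5, 752 and 1095 CPM in BDL libraries, against 633, 772 and 975 CPM in SHAM libraries. That sum also held abundant members of narrow range. COL5A2 and BGN, with spans of 1.77-fold and 1.80-fold, had 139 and 109.5 CPM of 692.5 CPM in SHAM replicate 1. Some meningeal members of lower level spanned more, such as SLC22A8 (49.4-fold) and MGP (5.79-fold). The libraries thus differed by TTR far more than by the sum of the meningeal members, which does not speak for each member.

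To find which genes rose and fell with TTR, the level of each of 14993 other genes was fitted on log2 TTR CPM beside sex and treatment (edgeR's quasi-likelihood test with Benjamini-Hochberg adjustment, as for all adjusted p-values of fits here). The slope is the log2 change of a gene per doubling of TTR. It passed an adjusted p of 0.05 for 17 genes, all rising with TTR, which is 0.113% of the genes tested. Fewer passed without BDL replicate 4 (6), SHAM replicate 9 (7), SHAM replicate 1 (8), SHAM replicate 10 (8), BDL replicate 7 (10) or BDL replicate 10 (10). Among the choroid plexus members 2 of the 6 tested beside TTR passed. CLIC6 had a slope of 0.89 ± 0.04 (SE; adjusted p = 3.65e-14), so that it moved nearly in step with TTR, and KCNJ13 had a slope of 0.37 ± 0.04 (adjusted p = 1.62e-06). CLIC6 and KCNJ13 passed in each of the 22 fits that left out a library.

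FOXJ1 had a slope of 0.13 ± 0.04 (adjusted p = 0.484), KRT18 one of 0.09 ± 0.05 (adjusted p = 0.786), OTX2 one of 0.02 ± 0.01 (adjusted p = 0.785) and TRPM3 one of -0.02 ± 0.02 (adjusted p = 0.897). None of these 4 passed. In a fit without the filter on low counts, where 0.156% of 25709 genes rose with TTR, AQP1 (slope 0.61 ± 0.06, adjusted p = 1.61e-08) and PRLR (0.41 ± 0.05, adjusted p = 1.84e-05) rose as well. The members with slopes past the threshold were thus a chloride channel family protein, a potassium channel, a water channel and a hormone receptor of the epithelium.

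The ratio of CLIC6 counts to TTR counts, with no correction for transcript length, spanned 5.60-fold over the 22 libraries, against 837-fold for TTR. CLIC6 had 13.4, 21.0 and 67.7 counts per 1000 TTR counts (lowest, median, highest) in BDL libraries, against 12.1, 16.2 and 46.5 in SHAM libraries. The highest ratio was in BDL replicate 10, with 192 TTR counts, while BDL replicate 6, with 199 TTR counts, had 15.1. KCNJ13 in contrast had between 24.9 and 397 counts per 1000 TTR counts in BDL libraries and between 20.5 and 1442 in SHAM libraries, and its level was not under 2.08 CPM in any library, those almost free of TTR included. AQP1 had between 1.60 and 27.4 counts per 1000 TTR counts in BDL libraries and between 2.46 and 120.0 in SHAM libraries.

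Across the 22 libraries the Pearson correlation of log2 levels with TTR was 0.96 for CLIC6 (Spearman rho 0.97), 0.88 for KCNJ13 (0.88), 0.84 for AQP1 (0.81) and 0.82 for PRLR (0.84). Each had a permutation p of 1e-05 for both coefficients, the smallest that 100000 resamples can give, and an adjusted p of 3.7e-05 or 4.1e-05 over the 33 correlations computed. Without the 2 libraries farthest from the median of TTR (BDL replicate 4 and SHAM replicate 1) these 4 correlations were 0.96, 0.86, 0.86 and 0.84. For FOXJ1 the correlation was 0.57 (adjusted permutation p = 0.0119; rho 0.41, adjusted permutation p = 0.0951) and 0.38 without those libraries, so it rests in part on them. OTX2 had 0.35 (adjusted permutation p = 0.148), KRT18 0.30 (0.219) and TRPM3 -0.16 (0.499).

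**Figure D2:**
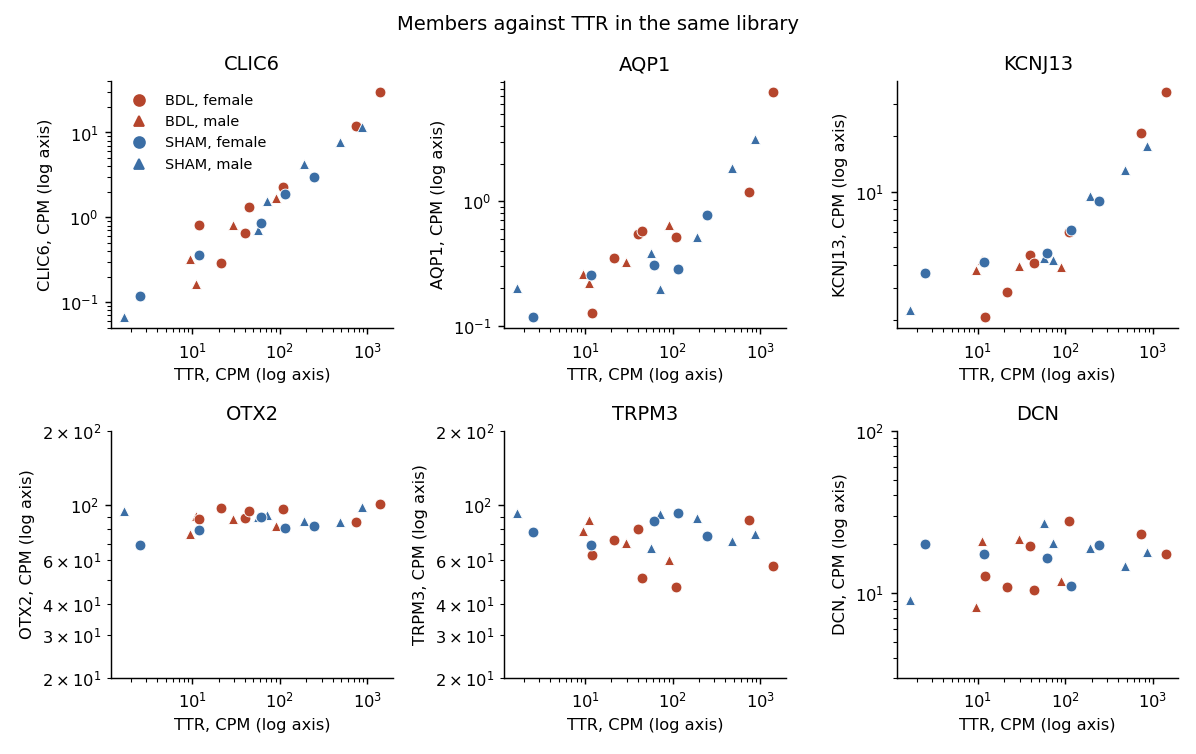
Each symbol is 1 library; the horizontal axis is TTR and the vertical axis the named gene, both in CPM on log axes. CLIC6 rises along the whole range of TTR, AQP1 and KCNJ13 rise in the libraries richest in TTR, and OTX2, TRPM3 and the meningeal gene DCN had no slope on TTR past the threshold, DCN over a 3.41-fold span.

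Other genes of the choroid plexus epithelium, from a list of 27 that holds no member, followed TTR in part. Of the 22 that passed the count filter 4 rose with TTR and none fell. HTR2C, a serotonin receptor of this epithelium, had a slope of 0.44 ± 0.04 (adjusted p = 6.16e-07), with 0.378, 0.798 and 8.87 CPM (lowest, median, highest) in BDL libraries, against 0.533, 1.60 and 3.83 CPM in SHAM libraries. MFRP (0.30 ± 0.03, adjusted p = 6.16e-07), WFIKKN2, a secreted inhibitor of growth factors (0.37 ± 0.04, adjusted p = 9.6e-05), and the calmodulin-like gene CALML4 (0.24 ± 0.04, adjusted p = 0.0063) were the others. Without the count filter 9 of the 27 passed, all rising. They then included the tight junction genes CLDN2 (slope 0.88 ± 0.07, adjusted p = 3.48e-09) and CLDN1 (0.90 ± 0.08, adjusted p = 1.61e-08), TMEM72 (0.67 ± 0.06, adjusted p = 2.39e-08), the cation channel TRPV4 (0.59 ± 0.08, adjusted p = 3.99e-05) and SOSTDC1, a secreted inhibitor of BMP and Wnt signalling (0.17 ± 0.04, adjusted p = 0.0388). CLDN2 was at 0 in 5 of the 22 libraries and reached 6.21 CPM in BDL and 3.04 CPM in SHAM libraries. A further tight junction gene of the list, CLDN3, did not pass in that fit (-0.08 ± 0.07, adjusted p = 0.846). Neither did F5 (0.02 ± 0.05, adjusted p = 0.961), SLC4A5 (-0.02 ± 0.10, adjusted p = 0.977) or ATP1B1 (-0.01 ± 0.01, adjusted p = 0.934).

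Outside all lists, 10 named genes rose with TTR. CA3 had the steepest slope of them (0.55 ± 0.04, adjusted p = 1.83e-08), with 0.503, 1.13 and 18.1 CPM in BDL libraries, against 0.266, 1.96 and 4.74 CPM in SHAM libraries. CA2 (0.12 ± 0.02, adjusted p = 0.0239), another carbonic anhydrase, belongs to the family of enzymes that supply bicarbonate for fluid secretion. The others were RIBC2, COL8A2, CNMD, CRYBG1, TINAGL1, SLC2A12, PLIN5 and RBM47, with slopes between 0.15 and 0.27 and adjusted p between 0.0239 and 0.0479. The next in order, SLC16A6 (adjusted p = 0.0862) and CFAP45 (adjusted p = 0.166), did not pass. No gene fell with TTR; the smallest adjusted p of a falling gene was 0.107, for PRSS23 (slope -0.11 ± 0.02), and ECE1, ALDH5A1, GRIP2, COL22A1 and MRAP2 came after it.

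None of the 23 meningeal members passed the test on TTR. SLC13A4, a sulfate transporter, came nearest with a slope of 0.19 ± 0.04 (adjusted p = 0.0573). It passed in 5 of 29 settings, namely without SHAM replicate 2, 7 or 8, without the sex and treatment terms, and with TTR on a linear scale, over an adjusted p range of 0.00221 to 0.606. It had 8.10, 11.8 and 47.6 CPM (lowest, median, highest) in BDL libraries, against 9.53, 15.4 and 30.9 CPM in SHAM libraries, and its highest libraries, BDL replicates 1 and 4 and SHAM replicate 10, were also the 3 highest in TTR. Markers of ependyma and motile cilia (9 of 10 slopes above 0, against 51% of all genes tested), smooth muscle and pericytes (8 of 13), endothelium (4 of 11), blood cells (3 of 5), microglia and macrophages (1 of 12), granule neurons (6 of 13), Purkinje cells (3 of 11), astrocytes (2 of 8), oligodendrocytes (7 of 7), peripheral nerve (2 of 4) and brainstem neurons (0 of 2) had no gene that passed.

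The meningeal members were set in the same way against DCN, decorin, a proteoglycan of collagen fibrils made by fibroblasts. DCN had 8.19, 17.4 and 28.0 CPM (lowest, median, highest) in BDL libraries, against 9.06, 18.0 and 26.9 CPM in SHAM libraries. The groups overlapped, and the span over all libraries was 3.41-fold. The slope on DCN passed for 37 of 14993 genes, of which 36 (0.24% of the genes tested) rose with DCN and 1, TRHDE, fell (-0.28 ± 0.05, adjusted p = 0.00966). Among the other 22 meningeal members tested, 10 rose with DCN and none fell, and the median slope of the 22 was 0.64, against -0.004 over all genes tested. Fewer genes passed without BDL replicate 1 (23), SHAM replicate 4 (23) or SHAM replicate 7 (24), each against 37.

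Of the collagens, COL1A1 and COL1A2, the chains of type I collagen, and COL3A1, type III collagen, followed DCN. COL1A1 had 68.2, 124 and 204 CPM in BDL libraries, against 80.9, 129 and 206 CPM in SHAM libraries, with a slope of 0.86 ± 0.13 (adjusted p = 0.00253). COL1A2 had 57.9, 96.9 and 181 CPM in BDL libraries, against 75.2, 116 and 171 CPM in SHAM libraries (slope 0.86 ± 0.12, adjusted p = 0.00108). The overlap between BDL and SHAM was near complete for both chains. COL3A1 had 30.4, 62.7 and 134.5 CPM in BDL libraries, against 47.2, 69.1 and 112 CPM in SHAM libraries, with a slope of 0.95 ± 0.14 (adjusted p = 0.00152). COL6A1, a chain of the beaded-filament type VI collagen, had 14.0, 28.3 and 35.7 CPM in BDL libraries, against 17.7, 26.4 and 35.0 CPM in SHAM libraries, and the smallest adjusted p of all members in this fit (slope 0.74 ± 0.08, adjusted p = 6.26e-05).

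Other collagen members did not pass against DCN. COL5A2, a chain of the fibril-nucleating type V collagen, had 87.6, 108 and 143 CPM in BDL libraries, against 81.0, 103.5 and 139 CPM in SHAM libraries, and a slope of -0.10 ± 0.09 (adjusted p = 0.930). In the pig RefSeq annotation (Sscrofa11.1) it neighbours COL3A1 on chromosome 15, with COL3A1 at 93556914 to 93595678 and COL5A2 at 93611856 to 93981131. COL5A1 (0.28 ± 0.11, adjusted p = 0.632), COL6A3 (0.26 ± 0.11, adjusted p = 0.684) and COL12A1 (0.32 ± 0.10, adjusted p = 0.379) had small positive slopes. COL5A1 lay between 11.3 and 22.2 CPM in BDL libraries and between 10.7 and 23.2 CPM in SHAM libraries, and COL6A3 between 10.5 and 21.1 CPM in BDL libraries and between 9.36 and 20.6 CPM in SHAM libraries.

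The small leucine-rich proteoglycans divided in the same manner. LUM, lumican (7.48, 11.4 and 19.6 CPM in BDL libraries, against 10.9, 13.8 and 27.9 CPM in SHAM libraries), followed DCN with a slope of 0.60 ± 0.12 (adjusted p = 0.0256). Its call was lost under limma-voom, and when SHAM replicate 4 or any of BDL replicates 2, 6, 7 and 11 was left out, with an adjusted p of up to 0.139 over all settings. OMD, osteomodulin (2.60, 3.89 and 7.76 CPM in BDL libraries, against 2.61, 4.57 and 6.89 CPM in SHAM libraries), had a slope of 0.81 ± 0.12 (adjusted p = 0.00108). LUM stands beside DCN on chromosome 5 (91748871 to 91756381 and 91678601 to 91713925, Sscrofa11.1). OGN, osteoglycin, and ASPN, asporin, flank OMD on chromosome 3 (42116521 to 42135940 and 42165553 to 42192902, with OMD at 42142603 to 42155032). OGN had a slope of 0.21 ± 0.08 (adjusted p = 0.518) and ASPN one of 0.08 ± 0.14 (adjusted p = 0.969). BGN, biglycan, had 99.2, 116.5 and 161 CPM in BDL libraries, against 89.6, 121 and 128 CPM in SHAM libraries, and a slope of 0.14 ± 0.08 (adjusted p = 0.861). The differences between the slopes of these genes were not tested.

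Among the transporters, SLC6A13, a GABA transporter of the leptomeninges (3.25, 5.97 and 12.9 CPM in BDL libraries, against 3.02, 4.86 and 7.76 CPM in SHAM libraries), followed DCN with a slope of 0.86 ± 0.15 (adjusted p = 0.00664), a call lost without BDL replicate 2. SLC22A8, the organic anion transporter OAT3, which choroid plexus epithelium also expresses, had 0.114, 0.925 and 5.63 CPM in BDL libraries, against 0.277, 1.39 and 3.53 CPM in SHAM libraries. Its slope on DCN was 1.87 ± 0.40 (adjusted p = 0.0466), and it no longer passed in 14 of the 22 fits that left out a library. SLC13A4 (0.83 ± 0.29, adjusted p = 0.4995) and SLC47A1, an exporter of organic cations (0.51 ± 0.19, adjusted p = 0.529), did not pass. SLC47A1 lay between 3.93 and 13.7 CPM in BDL libraries and between 4.22 and 10.6 CPM in SHAM libraries.

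FOXC1, a forkhead factor needed for the growth of the meninges, had 1.57, 3.44 and 5.70 CPM in BDL libraries, against 1.88, 3.23 and 4.80 CPM in SHAM libraries. It followed DCN with a slope of 0.83 ± 0.18 (adjusted p = 0.0398), a call also lost in 14 of 22 fits that left out a library. TBX18, a T-box factor of mural and meningeal cells, had a slope of 0.69 ± 0.17 (adjusted p = 0.0949) and lay between 1.68 and 3.87 CPM in BDL libraries and between 1.67 and 5.62 CPM in SHAM libraries. FBLN1, fibulin 1 of the elastic matrix (13.4, 21.2 and 31.6 CPM in BDL libraries, against 15.8, 19.2 and 28.5 CPM in SHAM libraries), passed with 0.57 ± 0.09 (adjusted p = 0.00152). MGP, an inhibitor of matrix calcification (5.53, 10.4 and 21.1 CPM in BDL libraries, against 3.66, 14.0 and 21.2 CPM in SHAM libraries), had 0.99 ± 0.22 (adjusted p = 0.0703). MGP passed without SHAM replicate 8, 9 or 10 and in the fit with no sex and treatment terms, and TBX18 without SHAM replicate 8. LAMA1, a laminin chain of basement membranes (9.21, 12.9 and 17.7 CPM in BDL libraries, against 11.5, 14.3 and 17.0 CPM in SHAM libraries), had -0.04 ± 0.10 (adjusted p = 0.983).

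Other fibroblast and meningeal genes moved with DCN too. From a list of 41 that holds no member, 36 were tested, of which 7 rose and none fell, with a median slope of 0.57. ISLR (1.11 ± 0.14, adjusted p = 0.000227), IGFBP6, an IGF-binding protein (1.11 ± 0.17, adjusted p = 0.00162), ALDH1A2, which makes retinoic acid (0.83 ± 0.14, adjusted p = 0.0034), and COL14A1 (0.81 ± 0.15, adjusted p = 0.00924) led that list. Outside all lists, the 12 named genes with the smallest p-values were HTRA3, AEBP1, MYL9, CPXM1, COLEC12, CTSC, MMP2, CYP1B1, OLFML3, MME, TGFBR2 and FMO1, with slopes between 0.34 and 0.97 and adjusted p between 6.26e-05 and 0.0265. Another 3 named genes outside the lists passed, SEPTIN9 (0.65 ± 0.13, adjusted p = 0.0351), MXRA8 (0.31 ± 0.07, adjusted p = 0.0393) and WNT16 (1.15 ± 0.25, adjusted p = 0.0466); they were added after their values were seen. MMP2, a matrix-degrading gelatinase, had 0.43 ± 0.08 (adjusted p = 0.0155). The smooth muscle gene ACTA2 (0.91 ± 0.19, adjusted p = 0.0358) also rose, as 1 of 13 smooth muscle and pericyte genes tested. In that list 10 of 13 slopes were above 0 (median 0.33). At an unadjusted p under 0.05 (edgeR) there were 6 of these 13, against 1000 of 14993 genes tested. Of the 11 endothelial slopes 9 were above 0 (median 0.15). None of the 11 endothelial genes, 12 microglia and macrophage genes, 5 blood cell genes and 13 granule neuron genes passed. By sign, all 13 granule neuron slopes were below 0 (median -0.08; 51.5% of all genes tested were below 0), while all 12 microglia and macrophage slopes (median 0.22) and all 7 oligodendrocyte slopes (median 0.12) were above 0.

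No gene passed both on TTR and on DCN. None of the 7 choroid plexus members tested passed against DCN, among them TTR (slope 2.28 ± 1.63, adjusted p = 0.910) and CLIC6 (1.51 ± 1.25, adjusted p = 0.929). From the list of other choroid plexus genes, STRA6, a receptor for retinol-binding protein (1.09 ± 0.18, adjusted p = 0.0034), and the keratin gene KRT8 (2.06 ± 0.42, adjusted p = 0.0358) passed against DCN and not against TTR. The correlation of DCN with TTR was 0.33 (rho 0.25, adjusted permutation p = 0.170 and 0.315), and 0.21 without the 2 libraries farthest from the median of TTR. With DCN and TTR in a single fit, 0.0734% of genes passed on TTR and 0.293% on DCN. CLIC6 and KCNJ13 kept their call on TTR, and 8 meningeal members passed on DCN, all of them among the 10 above, while FOXC1 and SLC22A8 did not pass at slopes close to those above (0.84 ± 0.19, adjusted p = 0.0528, and 1.79 ± 0.43, adjusted p = 0.101). LYVE1, from the microglia and macrophage list, passed on DCN in that fit (1.18 ± 0.25, adjusted p = 0.0409).

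**Figure D3:**
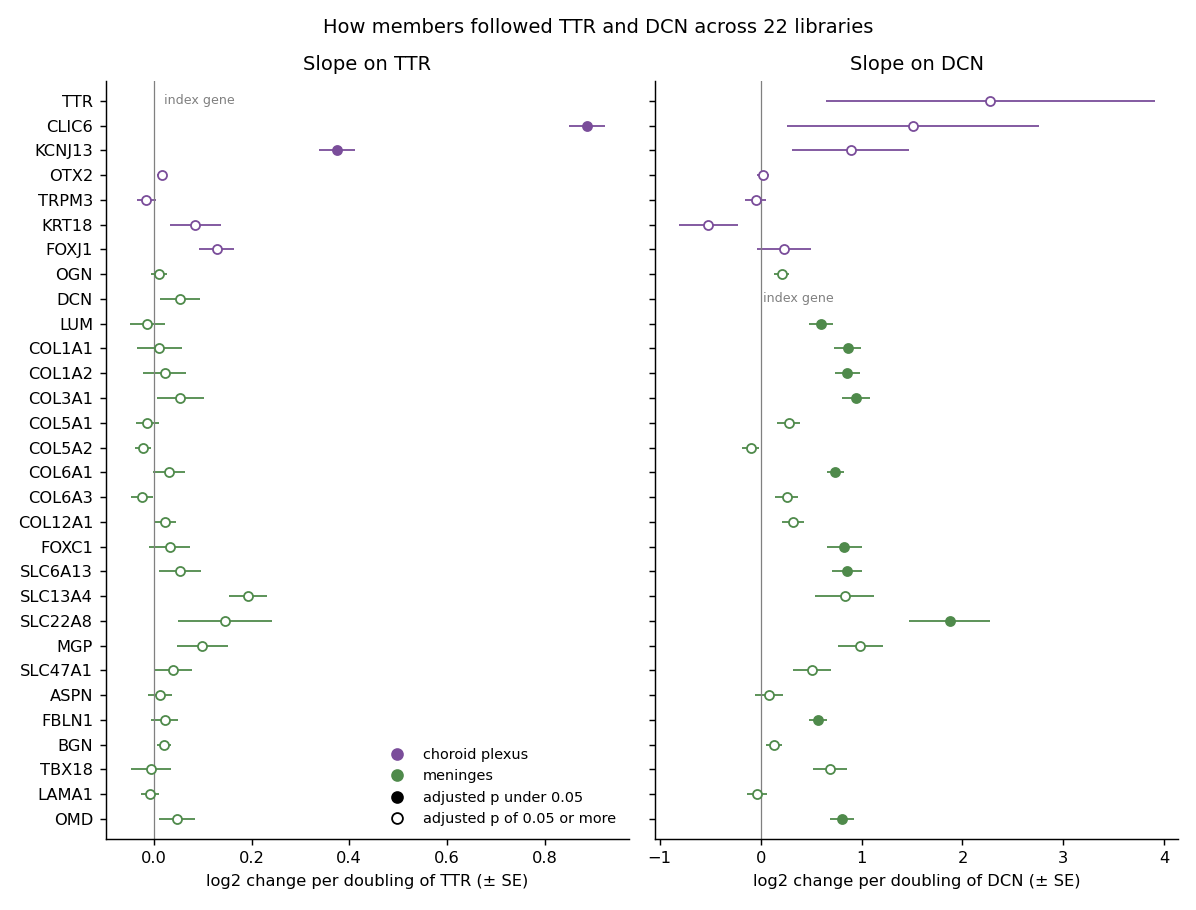
Slope of each tested member on TTR (left) and on DCN (right), as log2 change per doubling with SE bars, over 22 libraries. CLIC6 and KCNJ13 are the filled symbols on the left and 10 meningeal members are filled on the right; filled means an adjusted p under 0.05 over all genes tested.

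The question the design asks of these genes is whether ligation of the bile duct changed them. No member differed between BDL and SHAM at an adjusted p of 0.05, and neither did any other gene in this fit, 0 of 14994 (0%). DESeq2 passed 1 gene, no member, and limma-voom none. At an unadjusted p under 0.05 there were 744 genes in all, 4.96% of those tested, and 3 of the 30 members. Of the choroid plexus members, 3 were higher and 4 lower in BDL, with a median log2 fold change of -0.01. Of the meningeal members, 9 were higher and 14 lower (49.7% of all genes tested were lower), with a median of -0.05, against 0.0006 over all genes tested. For no member did the BDL libraries separate from the SHAM libraries, which was so for none of the 14994 genes.

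TTR differed by -0.05 ± 1.55 on the log2 scale, BDL over SHAM (edgeR's quasi-likelihood test, adjusted p = 0.996). Its log2 CPM averaged 5.79 ± 2.38 in BDL and 5.89 ± 2.88 in SHAM libraries (SD, n = 11 each), a difference of -0.10 (2-sided permutation p = 0.932, or 0.931 with labels permuted within sex). A standard error of that size leaves room for a change of several fold in either direction. CLIC6 differed by 0.43 ± 1.16 (adjusted p = 0.963) and KCNJ13 by 0.07 ± 0.55 (adjusted p = 0.985). TRPM3 differed by -0.22 ± 0.10 (unadjusted p = 0.0330, adjusted p = 0.881), and its lowest libraries, BDL replicates 2, 4 and 8, were BDL libraries. OTX2 (0.07 ± 0.06, adjusted p = 0.881), KRT18 (-0.47 ± 0.28, adjusted p = 0.881) and FOXJ1 (-0.01 ± 0.24, adjusted p = 0.992) did not pass. AQP1 and PRLR, fitted without the count filter, differed by 0.52 ± 0.84 (adjusted p = 0.928) and 0.33 ± 0.56 (adjusted p = 0.932).

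Among the meningeal members the smallest p-values belonged to OGN, COL12A1 and LUM, all lower in BDL by estimate. OGN had 39.1, 46.5 and 60.7 CPM (lowest, median, highest) in BDL libraries, against 43.3, 55.6 and 66.8 CPM in SHAM libraries. The groups overlapped, the highest BDL library lying above the SHAM median and the lowest SHAM library below the BDL median. Its log2 fold change was -0.20 ± 0.08 (unadjusted p = 0.0274, adjusted p = 0.881). COL12A1, a collagen that lies along fibril surfaces, had 17.5, 24.4 and 43.5 CPM in BDL libraries, against 25.3, 29.3 and 41.2 CPM in SHAM libraries, with -0.26 ± 0.12 (unadjusted p = 0.0393, adjusted p = 0.881). The highest COL12A1 library was BDL replicate 1, above all SHAM libraries. LUM had -0.35 ± 0.17 (unadjusted p = 0.0524, adjusted p = 0.881).

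The members that followed DCN most closely had estimates near 0 between the groups. DCN itself differed by -0.06 ± 0.21 (adjusted p = 0.972), COL1A1 by -0.05 ± 0.23 (adjusted p = 0.980), COL1A2 by -0.14 ± 0.22 (adjusted p = 0.936), COL3A1 by -0.09 ± 0.25 (adjusted p = 0.967) and COL6A1 by -0.03 ± 0.17 (adjusted p = 0.985). SLC6A13 had the largest positive estimate of the meningeal members (0.38 ± 0.22, adjusted p = 0.881). The log2 summed level of the meningeal members averaged 9.59 ± 0.36 in BDL and 9.65 ± 0.23 in SHAM libraries (SD, n = 11 each), and that of the choroid plexus members 8.15 ± 1.09 in BDL and 8.29 ± 0.85 in SHAM libraries. For both sums the difference of the means was smaller than either SD. The other 14 meningeal members tested had estimates between -0.18 (ASPN) and 0.12 (SLC13A4).

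**Figure D4:**
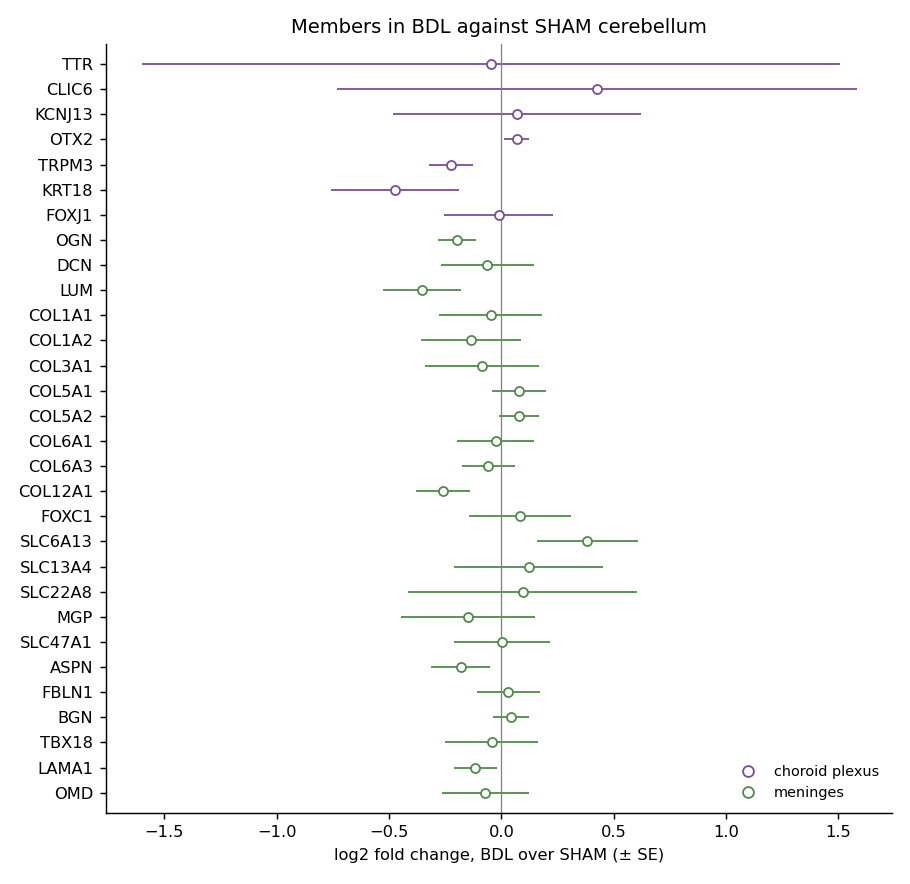
Log2 fold change of each tested member, BDL over SHAM, with SE bars (11 libraries in each group). The bars of TTR, CLIC6 and KCNJ13 are wide, those of OTX2, OGN, COL5A2 and BGN narrow, and no member passed an adjusted p of 0.05.

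The sexes were unevenly spread over the groups, so levels were also compared within each sex. In females TTR had 12.1, 44.3 and 1395 CPM (lowest, median, highest of 7) in BDL libraries, against 2.52, 11.8, 61.4, 116 and 244 CPM in the 5 SHAM libraries. In males it had 9.49, 11.01, 29.3 and 89.8 CPM in the 4 BDL libraries, against 1.67, 131 and 863 CPM (lowest, median, highest of 6) in SHAM libraries. The ranges overlapped in both sexes. Fitted by sex, TTR differed by 1.95 ± 1.36 in females and by -2.99 ± 1.60 in males on the log2 scale, BDL over SHAM, and the difference between the sexes was 4.95 ± 2.10 (edgeR, unadjusted p = 0.0299, adjusted p = 0.917). CLIC6 (4.99 ± 1.78, unadjusted p = 0.0115), KCNJ13 (2.08 ± 0.96, unadjusted p = 0.0440) and OTX2 (0.32 ± 0.10, unadjusted p = 0.00247) had estimates in the same direction, as did FOXJ1 (0.88 ± 0.45, unadjusted p = 0.0644). TRPM3 (-0.16 ± 0.20, unadjusted p = 0.443) and KRT18 (-0.10 ± 0.59, unadjusted p = 0.861) had estimates below 0.

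No gene passed the test of that difference between the sexes (edgeR, 0 of 14994, 0%, with 689 at an unadjusted p under 0.05, 4.6%, and none by limma-voom). Since TTR, CLIC6 and KCNJ13 follow each other from library to library, they are not separate evidence. Among the meningeal members, SLC13A4 had 1.26 ± 0.60 (unadjusted p = 0.0474, adjusted p = 0.917), the only one of 23 at an unadjusted p under 0.05. Between females and males over both groups, 9 genes (0.06% of those tested) differed and no member was among them. The member estimates lay between -0.24 (SLC6A13) and 0.40 (TTR) on the log2 scale, female over male.

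The sample titles carry an animal number from 400 to 421, and the labels do not say what it records. Most meningeal estimates ran downwards with that number, none past the adjusted threshold. In a fit of every gene on that number beside sex and treatment, 22 of 23 meningeal slopes were below 0, against 49.4% of all genes tested, and 15 of 23 had an unadjusted p under 0.05, against 9.98% of all genes tested. None passed an adjusted p of 0.05, which 11 of 14994 genes did (0.0734%), and the smallest adjusted p of a member was 0.0791, for COL12A1. None of the 7 choroid plexus members had an unadjusted p under 0.05.

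In BDL libraries the levels of DCN and COL1A1 in high and low animal numbers did not overlap. DCN had 8.19, 10.4, 10.9, 11.9 and 12.7 CPM in the 5 BDL animals numbered 411 and above, against 17.4, 21.4 and 28.0 CPM (lowest, median, highest) in the 6 BDL animals numbered below 411. COL1A1 had 68.2, 70.7, 81.0, 83.0 and 101 CPM in those 5 BDL animals, against 124, 175 and 204 CPM in those 6. Nor did the levels overlap in BDL libraries for COL1A2, COL3A1, COL6A1, COL12A1, OMD, MGP, FBLN1, FOXC1 and TBX18. COL3A1 reached 47.8 CPM in the 5 BDL animals numbered 411 and above, against a lowest of 62.7 CPM in the 6 below. MGP came closest to overlap, with at most 10.26 CPM against a lowest of 10.38 CPM. The remaining members overlapped in BDL libraries. SLC6A13 reached 6.18 CPM in the 5 BDL animals numbered 411 and above, against a lowest of 4.16 CPM in the 6 below, and SLC22A8 reached 0.925 CPM, against a lowest of 0.767 CPM. In SHAM libraries the levels of DCN and COL1A1 overlapped. DCN had 11.07, 16.9 and 19.9 CPM in the 6 SHAM animals numbered 411 and above, against 9.06, 18.9, 19.95, 20.5 and 26.9 CPM in the 5 SHAM animals numbered below 411. COL1A1 had 80.9, 99.8 and 144 CPM in those 6 SHAM animals, against 100.5, 163, 171, 172 and 206 CPM in those 5. The split at 411 divides the 22 numbers evenly and was made after the values were seen, so it carries no test. How many of all genes tested separate at that split was not counted, so whether members separate more often than other genes is not known. With the number as a covariate no member passed between BDL and SHAM. DCN itself ran downwards with the number by estimate (-0.26 ± 0.09 per SD of the number, edgeR, adjusted p = 0.367). The fits on DCN had no term for the number. Whether members rose with DCN apart from the number was thus not tested.

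**Figure D5:**
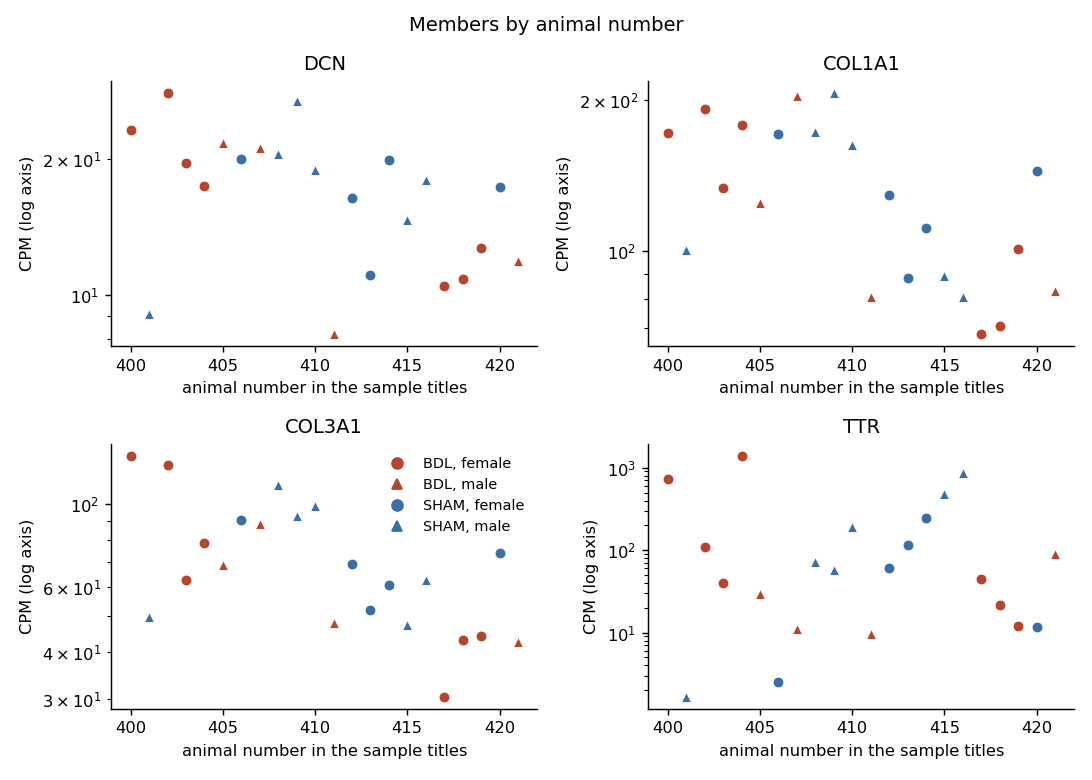
DCN, COL1A1, COL3A1 and TTR in CPM on a log axis, by the animal number in the sample titles; each symbol is 1 library. DCN, COL1A1 and COL3A1 are lower in BDL animals numbered 411 and above, and TTR is high and low along the whole range.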

How the data were processed

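Each sample's file held counts of reads per pig Ensembl gene, as deposited. Per the submitters' processing notes, Trim Galore, HISAT2, HTSeq and DESeq2 were used with the Sscrofa11.1 build; no version of a tool and no strand setting is named there. Reads assigned to no gene (29.9 to 34.6% of each file's total) were left out. From the deposited counts, 14994 genes passing edgeR's filter (minimum count 10, minimum total 15) were scaled by TMM (factors 0.974 to 1.02) and fitted by edgeR 4.0.16 (quasi-likelihood, robust) on sex and treatment; CPM use the same scaling. Added terms were log2 TTR, log2 DCN, animal number, or treatment within sex. DESeq2 1.42.0 and limma 3.58.1 (voom) were alternatives. Scripts were tested on simulated data. Correlations use log2(CPM + 0.1). Symbols and coordinates come from gene tables matched by identifier or symbol. The members and lists were chosen with earlier results of these data known. Every member is named; other genes are those with the smallest p in the TTR and DCN fits, up to 4 of each list, 12 rising and 6 falling outside the lists. Labels give 1 animal a library, so p-values measure spread between animals.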

Additional observations from a re-analysis of the deposited data

Results flagged for a closer look

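Within the 4 groups of treatment and sex, 5 of 120 sets of values (30 members in 4 groups) held 1 library far from the others by Dixon's ratio, and chance alone flags about 1 in 20. SHAM replicate 7 was lowest of 5 SHAM females for COL6A1 (17.7 CPM), COL6A3 (9.36 CPM) and BGN (98.3 CPM). SHAM replicate 2 was highest of 5 SHAM females for FBLN1 (26.2 CPM). SHAM replicate 4 was lowest of 6 SHAM males for BGN (89.6 CPM).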

How the results depend on the processing

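No member differed between BDL and SHAM, between the sexes or in the test of the sexes' difference under any alternative run, and each alternative between BDL and SHAM passed no gene, except that DESeq2's Wald test passed 1. Of genes that follow TTR, against 17, no filter on low counts gave 41 (4 members in place of 2), DCN as a covariate 11, TTR on a linear scale (added after seeing the data) 26, and leaving out 1 library 6 to 17. Of genes that follow DCN, against 37, leaving out 1 library gave 23 to 52. TTR, BDL against SHAM, ranged from -0.60 to 0.29 in mean log2 CPM without 1 library and reversed to 0.25 in the fit with no sex term. For uncalled members the log2 sign, BDL over SHAM, also reversed under limma-voom (TBX18 0.0206, SLC13A4 -0.0292, KCNJ13 -0.145, SLC22A8 -0.279, SLC47A1 -0.00772, FOXC1 -0.00262), with TTR and DCN as covariates (TBX18 0.0542, COL6A1 0.011, KCNJ13 -0.0247, SLC22A8 -0.0139, COL1A1 0.0162), with animal number (FBLN1 -0.0521, SLC13A4 -0.0498, KCNJ13 -0.24, CLIC6 -0.0527, SLC22A8 -0.333, SLC47A1 -0.0921, FOXC1 -0.0724) and with body weight (KCNJ13 -0.033). Without 1 library it ranged from -0.0399 to 0.0945 for FBLN1, -0.145 to 0.0317 for DCN, -0.121 to 0.0662 for TBX18, -0.0873 to 0.231 for SLC13A4, -0.156 to 0.14 for FOXJ1, -0.113 to 0.0554 for COL6A1, -0.781 to 0.48 for TTR, -0.345 to 0.252 for KCNJ13, -0.405 to 0.837 for CLIC6, -0.209 to 0.242 for SLC22A8, -0.0934 to 0.0785 for SLC47A1, -0.183 to 0.0223 for COL1A1 and -0.0893 to 0.177 for FOXC1. Slopes on DCN that reversed with TTR as a covariate were OTX2 (-0.00729) and CLIC6 (-0.209), and without 1 library OTX2 ranged from -0.0274 to 0.0638, TRPM3 from -0.107 to 0.0298 and LAMA1 from -0.0811 to 0.0431. Without the 2 farthest libraries the correlation of TRPM3 with TTR was 0.0858 and of COL5A2 with DCN 0.0586. The cause of these changes was not tested. No paired analysis was possible because the replicate numbers follow the order of the samples and pair no animals.

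Depth limits the members with few counts: AQP1, PRLR and CLIC6 had as few as 2, 3 and 1 counts in a library, so their levels at the low end carry wide counting error. Symbols were matched by table, and without a stated strand setting reads of overlapping genes cannot be told apart. Transcript lengths were not used, so sums and ratios over genes are of counts, not of levels per length.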
